A study of Mus musculus with 15 samples.

Results

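The GATA transcription factors were represented by all 6 mouse genes of the family, Gata1 to Gata6, chosen as the genes whose symbols name the probes in the scanner files. They were read by 9 of the 56605 non-control probes on the array and make up 6 of its 37008 named genes. Gata1, Gata2 and Gata3 had 1, 1 and 1 probe, and Gata4, Gata5 and Gata6 had 2 each. The genes were picked with their signal on these arrays already known, so their levels and differences are given below as a description, with standard errors and without p-values.

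GATA factors are zinc-finger proteins that bind the DNA word GATA and its close variants in promoters and enhancers, usually together with cofactors of the FOG class, which the genes Zfpm1 and Zfpm2 encode. Gata1, Gata2 and Gata3 are best known from blood: Gata1 from red cells and platelets, Gata2 from stem and progenitor cells, mast cells and endothelium, and Gata3 from T cells and from luminal epithelium of the breast. Gata4, Gata5 and Gata6 are best known from heart, gut and other derivatives of mesoderm and endoderm. In the pancreas Gata4 and Gata6 are needed for the organ to form, Gata6 marks the better differentiated type of pancreatic cancer, and in the mouse liver Gata4 restrains the scar-forming activity of stellate cells.

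The study measured RNA of 5 groups of mouse cells on 1-colour arrays, 3 samples per group. Pancreatic stellate cells (PSC), the fibroblast-like cells that lay down scar in the pancreas, came from heterozygous mice (PSC HT) and from wild-type mice (PSC WT) and were activated by 2 weeks of culture. Pancreatic cancer cells were kept for 24 h in medium conditioned by PSC HT, in medium conditioned by PSC WT or in control medium. The labels name neither the locus at which the HT mice were heterozygous, nor the line and genotype of the cancer cells, nor the animals' age and sex, so the altered gene cannot be checked here. Nothing in the labels says that the 3 samples of a group came from separate animals or cultures, so the spread between them may be technical.

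On each array a level is the log2 signal minus the log2 of that array's 75th percentile, so 0 is the brightness below which 75 percent of the probes lie. Those percentiles ranged from 913.4 to 1449 units, 54.26% to 63.78% of the spots were well above background, and no spot was saturated. PSC arrays read 16 of 17 stellate cell markers above background and all 3 control arrays of the cancer cells 15 of 16 epithelial markers, as the labels state. The array of PSC HT replicate 3 stood apart from the other PSC arrays in its epithelial transcripts. Cdh1, the epithelial cadherin, was at -2.45 there and at -7.61 or less on the other 5, and the median of the 16 epithelial markers was -1.79, against -3.57 to -2.94 on the others. Some of the differences and counts between PSC HT and PSC WT are therefore also given without that sample.

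The probes decide what each GATA value can mean. A 30-base stretch is therefore shown of 4 probes, those that represent Gata2, Gata3, Gata4 and Gata5. Each is read from the scanner files 5′ to 3′ in the sense of the transcript. Capitals mark the 15-base word of each probe found in the largest number of RefSeq promoters, or the first such word where words tie. For Gata2, Gata3 and Gata4 the marked word occurred in 1 promoter. The promoters were windows of 300 bases, so these counts do not show matches elsewhere in transcripts.
Gata2: ggcagtaTTTTCTGTTTTTATGttttgggc
Gata3: tgTCCAAATGGGCACACtgtcagttttgtt
Gata4: aaccaagATTCTGTTGTAATCAttttcgct
Gata5: tgtagctCTGGCTGTCCTGGAActcattat
The files place these probes on the mm9 build at chr6:88156835-88156894 on the plus strand (Gata2), and on the minus strand at chr2:9779495-9779554 (Gata3), chr14:63817858-63817917 (Gata4) and chr2:180059867-180059926 (Gata5). The files assign all 4 to RefSeq transcripts, the Gata4 probe from base 3227 and the Gata5 probe from base 3168. Whether they lie in exons was not looked up. The Gata1 probe lies at chrX:7536392-7536451 on the minus strand. A second Gata4 probe starts at base 530 of the same transcript and lies at chr14:63860003-63860062, and a second Gata5 probe, made from a cDNA clone, lies at chr2:180062201-180062260.

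The words in capitals set the Gata5 probe apart. At least 1 of its 15-base words occurred in 57 of the 32817 RefSeq promoters, more than for 99.31% of all probes on the array, whereas each of the other 8 GATA probes shared a word with 1 to 5 promoters. The single word CTGGCTGTCCTGGAA accounted for 39 of the 57. The Gata5 probe also shared a word with 18 probes of other genes, against 0 to 2 for the other GATA probes. The word resembles the B1 element, a short repeat that lies in many mouse transcripts. Its part in the Gata5 signal was not tested.

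**Figure D1:**
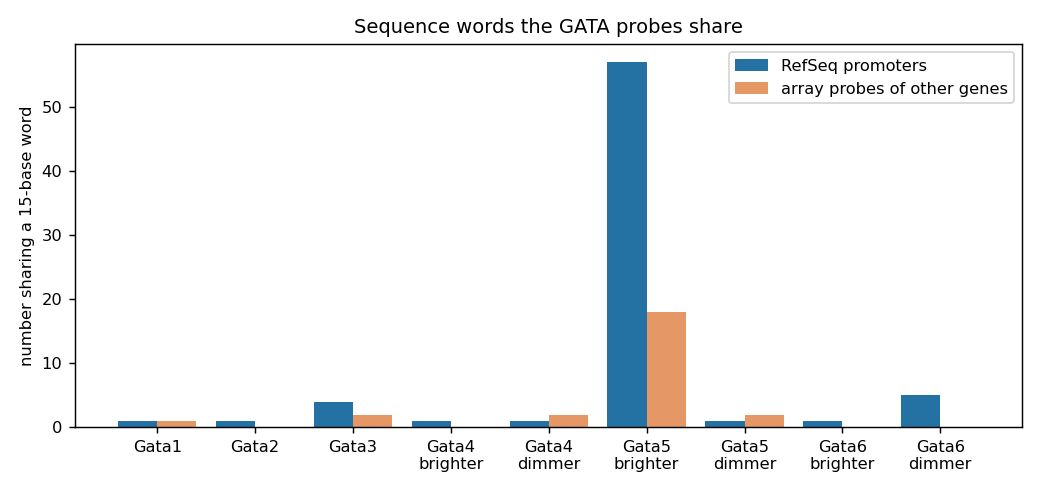
Number of RefSeq promoters (blue) and of array probes of other genes (orange) that share at least 1 word of 15 bases with each of the 9 GATA probes; brighter and dimmer refer to the pair of probes of a gene. The brighter Gata5 probe shares a word with 57 promoters and 18 other probes, and no other GATA probe with more than 5.

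Detection of the 6 genes differed between the cell types. Gata2 and Gata3 were well above background on all 6 PSC arrays and on 0 of the 9 cancer cell arrays, Gata1 on a single array, and Gata4, Gata5 and Gata6 on all 15 arrays by their brighter probe.

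**Figure D2:**
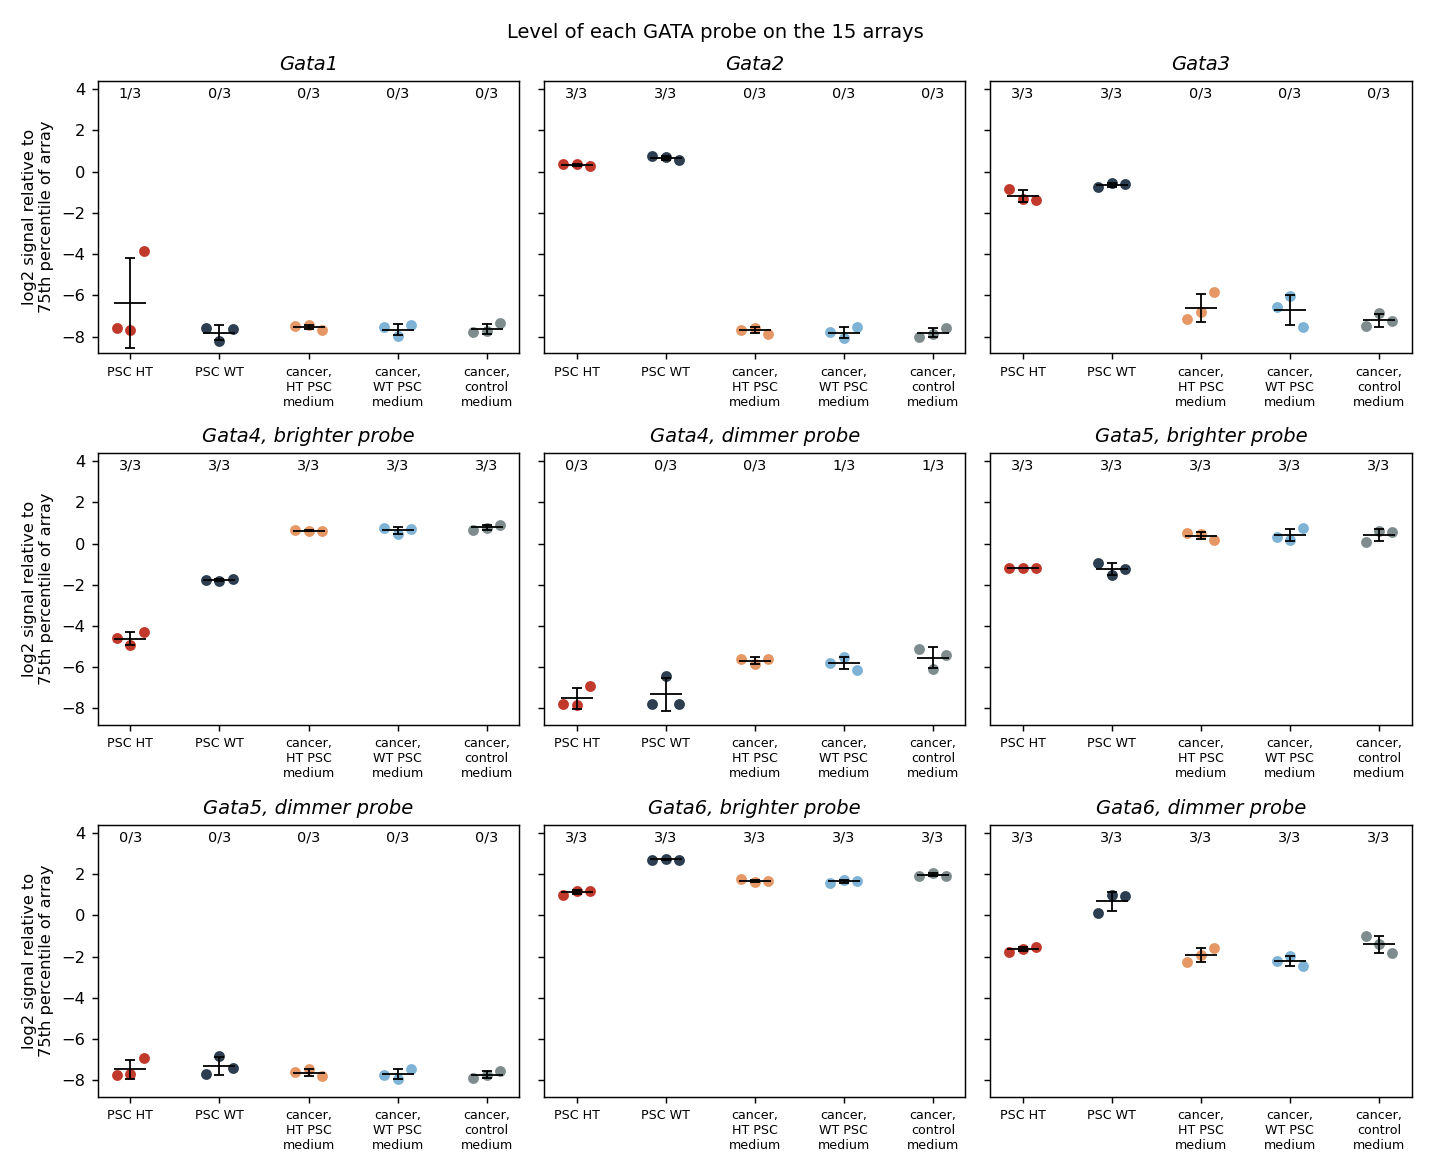
Level of each of the 9 GATA probes on the 15 arrays (log2 signal relative to the 75th percentile of the array). Points are samples, bars are the mean ± SD of 3, and the counts above each group say on how many of its 3 arrays the probe was well above background; Gata2 and Gata3 read 3/3 in both PSC groups and 0/3 in the cancer cells, and Gata4 and Gata6 differ between PSC HT and PSC WT.

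Gata1, the master regulator of red cells and platelets, was near background almost throughout. Its level was -7.56, -7.70 and -3.85 in PSC HT, against -7.58, -8.24 and -7.65 in PSC WT. The value of -3.85, on the array of PSC HT replicate 3, was the only one of 15 well above background, and the cancer cells lay between -7.98 and -7.36. Gata1 was too dim to enter any of the 5 comparisons.

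Gata2, a factor of progenitor and endothelial cells, was a PSC transcript. Its level was 0.37, 0.35 and 0.28 in PSC HT, against 0.75, 0.70 and 0.55 in PSC WT. The groups did not overlap and lay 0.18 apart at their nearest samples. The difference was -0.33 ± 0.08 (log2, SE), 1.26-fold lower in PSC HT, and -0.31 without PSC HT replicate 3. The cancer cells were between -8.07 and -7.55, so that PSC WT exceeded the control cancer cells at least 74.6-fold. Here and below, "at least" sets the brighter group against the dimmest signal the arrays called well above background, or against the probe's own signal where that was higher.

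Gata3, known from T cells and luminal epithelium, had the same pattern over the cells. Its level was -0.84, -1.33 and -1.37 in PSC HT, against -0.74, -0.54 and -0.60 in PSC WT. These groups were separated by 0.11, with PSC HT replicate 1 nearest to PSC WT. The difference was -0.55 ± 0.15, and -0.46 without PSC HT replicate 3. In the cancer cells Gata3 was between -7.51 and -5.84, and PSC WT exceeded the control cancer cells at least 30.4-fold.

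The starts of Gata2 and Gata3 are shown because these are the members read in PSC and not in the cancer cells. Each is 300 bases from RefSeq (GRCm38.p6), 5′ to 3′ in the sense of the gene, with capitals for the words AGATAA or AGATAG, and likewise for TGATAA or else TGATAG, searched on either strand.
Gata2, chr6:88193641-88193940, plus strand: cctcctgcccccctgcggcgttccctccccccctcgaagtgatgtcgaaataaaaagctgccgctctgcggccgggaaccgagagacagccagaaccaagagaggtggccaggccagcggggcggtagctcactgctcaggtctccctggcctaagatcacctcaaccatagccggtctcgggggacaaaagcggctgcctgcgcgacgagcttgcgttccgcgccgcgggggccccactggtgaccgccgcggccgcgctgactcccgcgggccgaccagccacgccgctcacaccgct
Gata3, chr2:9878551-9878850, minus strand: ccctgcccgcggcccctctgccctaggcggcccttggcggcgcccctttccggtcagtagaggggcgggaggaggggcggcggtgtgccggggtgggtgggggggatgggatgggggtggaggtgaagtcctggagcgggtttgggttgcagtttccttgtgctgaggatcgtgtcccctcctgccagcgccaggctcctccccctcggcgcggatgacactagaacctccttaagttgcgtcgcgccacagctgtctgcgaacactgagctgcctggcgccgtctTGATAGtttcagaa
Gata3 held 1 such word, TGATAG, downstream of its start, and Gata2 held 0, as did its second listed start and those of Gata1 and Gata5. Of all 32817 promoters of that length, 29.78% held at least 1. A match is a run of letters and was not tested as a binding site.

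Gata4, which restrains stellate cell activation in mouse liver and is needed in heart and gut, differed most between the PSC groups. Its level was -4.60, -4.94 and -4.30 in PSC HT, against -1.77, -1.81 and -1.72 in PSC WT. The groups did not overlap, and each PSC HT sample was below each PSC WT sample. The difference was -2.85 ± 0.16, a 7.20-fold lower signal in PSC HT, and -3.01 ± 0.12 without PSC HT replicate 3, the highest of its group. The size depends on the background correction: it was -1.59 with normexp, which lifts dim signals, and -1.61 in the authors' deposited table of log2 values. The mean over both Gata4 probes gave -1.52. The second probe was well above background on 0 of the 6 PSC arrays and 2 of the 9 cancer cell arrays. Within slide 1, which held 1 PSC WT array, the difference was -2.68, and within slide 2, which held 1 PSC HT array, it was -3.17.

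In the cancer cells Gata4 was bright and hardly varied. Its level was 0.65, 0.59 and 0.61 after medium of PSC HT, 0.75, 0.46 and 0.69 after medium of PSC WT, and 0.68, 0.75 and 0.92 in control medium. The difference from control was -0.16 ± 0.09 after medium of PSC HT, with groups 0.02 apart, and -0.15 ± 0.09 after medium of PSC WT, with overlapping groups. PSC WT minus control cancer cells was -2.55 ± 0.10 on the log2 scale. From the highest to the lowest level the groups ran control, WT medium, HT medium, PSC WT and PSC HT. The WT medium samples overlapped with those of control and of HT medium, while HT medium and control were 0.02 apart.

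Gata6, a regulator of endoderm and mesoderm that marks differentiated pancreatic cancer, was well above background everywhere and was lower in PSC HT. Its level was 1.00, 1.20 and 1.18 in PSC HT, against 2.69, 2.76 and 2.69 in PSC WT. The groups lay 1.48 apart. Both of its probes lie on chromosome 18. The difference was -1.58 ± 0.08, a 3.00-fold lower signal in PSC HT, and -1.61 ± 0.10 without PSC HT replicate 3. It was -1.60 within slide 1 and -1.52 within slide 2. The dimmer Gata6 probe, made from a cDNA clone, read -1.76, -1.64 and -1.55 in PSC HT, against 0.12, 0.98 and 0.91 in PSC WT, a difference of -2.32 ± 0.25. Both probes thus put every PSC HT sample below every PSC WT sample.

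In the cancer cells Gata6 was slightly lower after either conditioned medium. Its level was 1.75, 1.64 and 1.64 after medium of PSC HT, 1.57, 1.71 and 1.65 after medium of PSC WT, and 1.92, 2.05 and 1.93 in control medium. Neither medium overlapped with control, by gaps of 0.17 and 0.21. The difference from control was -0.29 ± 0.07 after medium of PSC HT and -0.32 ± 0.07 after medium of PSC WT, comparisons that share the control samples. The dimmer probe gave -0.52 ± 0.26, with overlap, and -0.81 ± 0.26, with a gap of 0.14. The media of PSC HT and PSC WT differed by 0.03 ± 0.07 in Gata6, with a 95% interval of -0.12 to 0.19, and their samples overlapped. The labels do not say that sample numbers mark pairs, but WT medium and control samples of the same number deviated together weakly (r of 0.14, 0.21 and 0.20). With the replicate number as a block the WT medium difference stayed at -0.32 ± 0.07 but was no longer called.

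Across the cells Gata6 was highest in PSC WT, then in control cancer cells, in the cells with either PSC medium, and lowest in PSC HT. PSC WT exceeded the control cancer cells by 0.75 ± 0.08. Scaling each array by its median lowered all differences of this comparison by a median of -0.39, and gave 0.36 for Gata6, while the mean of both Gata6 probes gave 1.41. PSC HT was the group with the lowest Gata6 by the brighter probe. By the dimmer probe PSC HT, at -1.55 or less, lay within the range of the cancer cells, from -2.45 to -0.99.

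Gata5, a heart and gut factor, varied little within each cell type by its brighter probe and was lower in PSC WT than in control cancer cells. Its brighter probe was at -1.17, -1.18 and -1.20 in PSC HT, against -0.95, -1.52 and -1.24 in PSC WT, a difference of 0.05 ± 0.14 with overlapping groups. In the cancer cells it was 0.50, 0.48 and 0.17 after medium of PSC HT, 0.33, 0.16 and 0.75 after medium of PSC WT, and 0.09, 0.62 and 0.58 in control medium. The 3 groups overlapped, and the differences from control were -0.05 ± 0.19 and -0.02 ± 0.19. PSC WT minus control cancer cells was -1.66 ± 0.20, and the mean over both Gata5 probes gave -0.62. The dimmer Gata5 probe was not well above background on any of the 15 arrays, with levels from -7.93 to -6.82, so that no second probe supports a Gata5 level. Gata5os, a transcript of the opposite strand that is not a member, was well above background on 8 of 9 cancer cell arrays and on 0 of 6 PSC arrays.

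**Figure D3:**
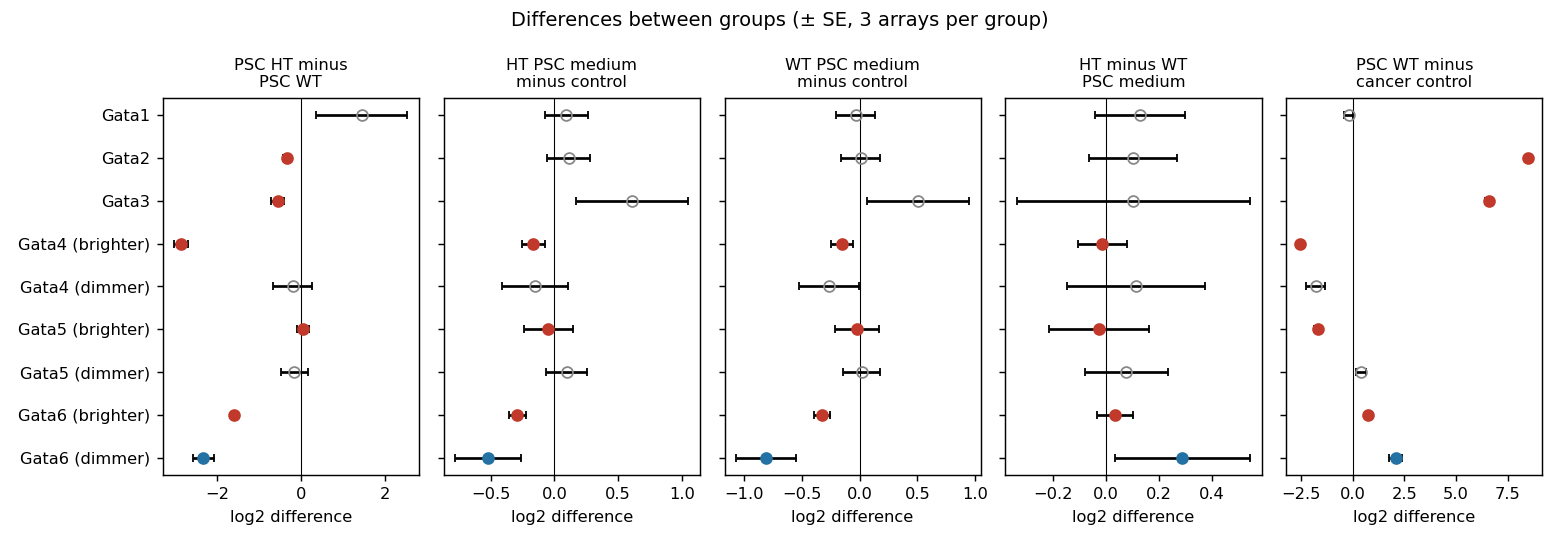
Difference of each GATA probe in the 5 comparisons (log2, ± SE; the scale differs between panels). Red points are the probe that represents the gene, blue points a second probe, and open points probes not well above background on all arrays of either group; Gata4 and Gata6 lie left of 0 in PSC HT minus PSC WT, and Gata6 lies left of 0 by both probes against control medium.

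Genes were called when limma's test gave an adjusted p (Benjamini-Hochberg, over all genes tested) under 0.05. Between PSC HT and PSC WT 5 of the 6 members could be tested and 2 were called, Gata4 and Gata6, both lower (4.78% of all 20886 genes tested were called lower and 7.72% in either direction). 4 of the 5 did not overlap between groups, as did 29.1% of all genes. With medium of PSC HT 1 of 3 members tested was called against control, Gata6, as lower, where 5.46% of 19687 genes were called and 2.5% as lower. With medium of PSC WT it was again 1 of 3, Gata6, where 5.96% were called and 3.15% as lower. The Gata6 call with medium of PSC HT was lost when any 1 of the 9 cancer cell samples was left out, with differences of -0.33 to -0.25, and that with medium of PSC WT was kept only without HT medium replicate 1 or 2. Groups did not overlap for 2 of 3 members with medium of PSC HT, as for 24.3% of all genes, and for 1 of 3 with medium of PSC WT, as for 25.2%. Between the media 0 of 3 were called, where limma called 0% of genes and 4.88% had an unadjusted p under 0.05. Between PSC WT and control cancer cells all 5 members tested were called, 3 higher and 2 lower, where 71.4% of 21928 genes were called, 36.1% higher and 35.3% lower. The members were picked for these values, so nothing is read from the counts. The median difference of the members tested was -0.55 between PSC HT and PSC WT, against -0.003 over all genes.

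The cofactors of the GATA factors were followed in a list of 31 genes. This list and those below were chosen with earlier results of these data known. Their counts and adjusted p-values are therefore a description, from which nothing is read about the GATA factors. Between PSC HT and PSC WT 26 were tested, 2 rose and 2 fell, and their median difference was 0.00, against -0.003 for all genes. Of all genes 7.72% were called in either direction. Without PSC HT replicate 3, 1 cofactor rose and 1 fell. Zfpm2, the FOG cofactor that works with Gata4 in heart and gonad, fell to -0.16 ± 0.10 in PSC HT, against 0.66 ± 0.03 in PSC WT (SD, n = 3 each), a difference of -0.83 ± 0.08 with an adjusted p of 0.00289 by limma. Zfpm2 stayed called when each of the 6 samples was left out in turn. Zfpm1, the cofactor that works with Gata1 in blood, differed by -0.15 ± 0.13 between PSC HT and PSC WT (adjusted p = 0.557 by limma). Runx1, a blood and mesenchymal factor, rose by 0.52 ± 0.07 (adjusted p = 0.0120) and Lmo2, an adaptor of the Gata1 and Gata2 complexes, by 2.41 ± 0.51 (adjusted p = 0.0397). Lmo4, a related adaptor, fell by 0.41 (adjusted p = 0.0361). Without PSC WT replicate 2 or 3 the calls of Runx1, Lmo2 and Lmo4 were lost, and those of Lmo2 and Lmo4 also without PSC WT replicate 1, PSC HT replicate 2 or PSC HT replicate 3. Lmo4 was lost without PSC HT replicate 1 as well.

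In the cancer cells Zfpm1 fell with both media. It averaged 3.95 ± 0.07 after medium of PSC HT and 4.01 ± 0.04 after medium of PSC WT, against 4.38 ± 0.04 in control medium (SD, n = 3 each). The differences were -0.44 ± 0.06 (adjusted p = 0.00570 by limma) and -0.37 ± 0.06 (adjusted p = 0.00971), and both calls held without each of the 9 samples in turn. Of 17 cofactors tested 0 rose and 1 fell with medium of PSC HT, and 0 rose and 2 fell with medium of PSC WT, the other being Hhex, an endodermal homeobox factor, which fell by 0.46 (adjusted p = 0.0264). The medians were 0.02 and -0.04, against 0.01 and 0.03 for all genes. Hhex was no longer called without control replicate 2 or 3 or without any one of the WT medium samples. With the replicate number as a block 1 of the 17 was called lower with medium of PSC WT.

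Between PSC WT and control cancer cells 14 of 26 cofactors rose and 8 fell, with a median of 0.42 against 0.04 for all genes. Of all genes 36.1% were called higher in PSC WT and 35.3% lower. Zfpm2 was higher in PSC WT by 0.60 ± 0.09 (adjusted p = 0.000701 by limma) and Zfpm1 was lower, with a difference of -1.13 ± 0.13 (adjusted p = 0.000223). Median scaling would shift all genes of this comparison by a median of -0.39. Hand2, a partner of Gata4 in the heart, was at least 36.6-fold higher in PSC WT, and Hhex was lower, with a difference of -7.28 ± 0.10.

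Other genes with GATA-type zinc fingers were 9 in number. None of the 9 was called by limma between PSC HT and PSC WT, with 2 at an unadjusted p under 0.05, as were 22.2% of all genes. None of 8 was called with either medium, with 3 at that level with medium of PSC HT and 2 with medium of PSC WT, where 19.8% and 20.2% of all genes were. Trps1, a repressor of GATA sites in bone and hair, averaged -1.13 ± 0.10 in PSC HT and -0.84 ± 0.18 in PSC WT (adjusted p = 0.195 by limma). Between PSC WT and control cancer cells Trps1 was at least 26.2-fold higher in PSC WT.

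Genes of tissues and cells in which GATA factors act were listed by the factor. The lists include general markers of those cells, and whether the genes depend on GATA factors here was not tested. Of all genes tested between PSC HT and PSC WT 4.78% were called lower and 7.72% in either direction. Of 29 cardiac, gonadal and mesenchymal genes linked to Gata4 and Gata6, 24 were tested between PSC HT and PSC WT, 1 rose and 6 fell, with a median of -0.10. Without PSC HT replicate 3, 25 were tested, 0 rose and 5 fell. Bmp4, a growth factor, fell by 2.07 in PSC HT (adjusted p = 0.000965 by limma). Wt1, a factor of mesothelium and gonad, fell by 1.16 (adjusted p = 0.000965). Star, which moves cholesterol into mitochondria for steroid synthesis, fell by 1.60 (adjusted p = 0.000868). Lhx9, a gonadal homeobox factor, was at least 1.85-fold lower in PSC HT. All 4 stayed called without each sample in turn. Of 30 endodermal genes 11 were tested, 1 rose and 0 fell, with a median of 0.04. The gene that rose was Afp, at least 3.09-fold higher, and its call was lost without any of 5 of the 6 samples. Without PSC HT replicate 3, 0 of the 11 rose and 1 fell.

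Of 23 genes linked to Gata2 in endothelium, progenitors and mast cells, 12 were tested, 0 rose and 7 fell, with a median of -1.37. Of all genes 4.78% were called lower. Without PSC HT replicate 3, 13 of the list were tested, 0 rose and 7 fell. Emcn, an endothelial sialomucin, fell by 2.95 (adjusted p = 0.000769 by limma). Esam, an endothelial adhesion molecule, fell by 2.56 (adjusted p = 0.000769), and Cd34, a surface protein of progenitors and vessels, fell by 1.34 (adjusted p = 0.00178). Of 22 T helper, lymphoid and luminal genes linked to Gata3, 14 were tested, 2 rose and 1 fell, with a median of 0.05. Without PSC HT replicate 3, 1 rose and 2 fell. Tbx3, a T-box factor, rose by 0.54 ± 0.08 (adjusted p = 0.0121) and Il33, an alarm cytokine, fell by 1.59 (adjusted p = 0.0187). Without PSC WT replicate 2 both calls were lost, as was that of Tbx3 without PSC WT replicate 3, and that of Il33 without PSC WT replicate 1 or PSC HT replicate 2. Of 23 erythroid and platelet genes linked to Gata1, 9 were tested and limma called 0, with 3 at an unadjusted p under 0.05, as were 22.2% of all genes.

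Markers of other cells moved with genotype beside these genes. Across all 20886 genes tested between PSC HT and PSC WT, 614 were called higher and 999 lower, with a median of -0.003. Of the 15 mesothelial markers 0 rose and 8 fell in PSC HT, with a median of -1.16, and their summed signal was 22.9 to 47.0 times the 75th percentile in PSC HT, against 70.1 to 81.4 times in PSC WT. Upk3b, a defining marker, fell by 2.70 (adjusted p = 0.00107 by limma). Of 10 endothelial markers tested 1 rose and 7 fell, with a median of -1.37, and summed signals of 10.2 to 11.3 in PSC HT, against 12.8 to 13.8 in PSC WT. Cdh5, the endothelial cadherin, was not well above background on any PSC HT array. Flt1 was the endothelial marker that rose, by 1.53 ± 0.07 (adjusted p = 0.000604 by limma), and it stayed called without each sample in turn. 12 of the endothelial markers are also in the list linked to Gata2. Of 19 macrophage and leukocyte markers tested 16 rose and 0 fell, with a median of 2.73, and summed signals of 87.5 to 219 in PSC HT, against 22.2 to 37.2 in PSC WT. The stellate cell markers rose in 2 of 16 cases and fell in 0, with a median of 0.11. In bulk RNA fewer cells of a type and less RNA per cell cannot be told apart. The part of the mesothelial, endothelial and macrophage markers in the lower Gata4 and Gata6 was not tested. Without PSC HT replicate 3, 0 rose and 10 fell of 15 mesothelial markers, 1 rose and 7 fell of 10 endothelial markers, and 6 rose and 0 fell of 20 macrophage markers. Their medians were then -1.32, -1.33 and 2.99, against 0.003 over all genes. Leaving out 1 sample also lowered the calls over all genes, from 1613 to between 554 and 1284. The 4 keratin genes are in both the mesothelial and the epithelial list.

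**Figure D4:**
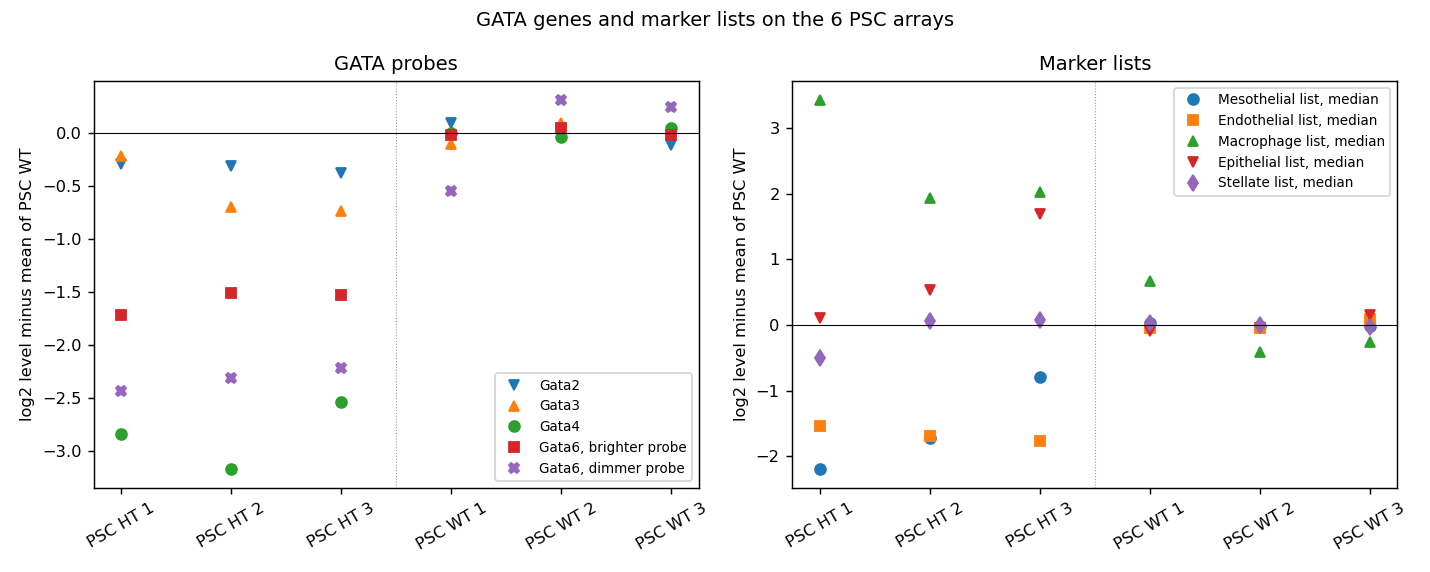
The 6 PSC arrays, PSC HT left of PSC WT. Left, the level of 5 GATA probes, and right, the median level of 5 marker lists, each as log2 minus the mean of PSC WT; Gata4 and both Gata6 probes lie at least 1.5 below PSC WT on all 3 PSC HT arrays, where the mesothelial and endothelial medians are also lower and the macrophage median is higher, and the epithelial median is highest on PSC HT replicate 3.

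In the cancer cells some endodermal genes fell with the media, and most did not pass the test. Of all genes 2.5% were called lower with medium of PSC HT and 3.15% with medium of PSC WT. With medium of PSC HT 0 of 24 endodermal genes tested rose and 6 fell, with a median of -0.11, against 0.01 for all genes. With medium of PSC WT 2 rose and 7 fell, with a median of -0.18, against 0.03. Ttr, the thyroid hormone carrier, fell by 1.54 with medium of PSC HT (adjusted p = 0.000809 by limma). Tff1, a mucosal peptide, fell by 0.94 with medium of PSC HT (adjusted p = 0.00170) and fell by 1.17 with medium of PSC WT (adjusted p = 0.000452). Tff2, a related peptide, fell by 1.51 with medium of PSC WT (adjusted p = 0.000346). Of 19 cardiac, gonadal and mesenchymal genes tested 3 rose and 1 fell with either medium, with medians of 0.00 and -0.08. Of 7 erythroid and platelet genes tested 1 rose with medium of PSC HT and 2 with medium of PSC WT. Of all 19687 genes 583 and 553 were called higher. Among these lists, Tnnt2, the cardiac troponin T, rose by 1.36 with medium of PSC HT (adjusted p = 0.000207 by limma) and by 1.41 with medium of PSC WT (adjusted p = 8.81e-05). Epor, the erythropoietin receptor, rose by 0.53 with medium of PSC HT (adjusted p = 0.00696) and by 0.60 with medium of PSC WT (adjusted p = 0.00335). Between the media limma called 0 genes of any of these lists.

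Endodermal genes were mostly lower in PSC WT than in control cancer cells, a comparison in which 36.1% of all genes were called higher and 35.3% lower. Of 26 endodermal genes tested between PSC WT and control cancer cells 5 rose and 21 fell, with a median of -7.18, against 0.04 for all genes. Hnf4a, a hepatic and gut factor, was at least 2704-fold lower in PSC WT and Pdx1, the pancreatic homeobox factor, at least 406-fold lower. Of 25 cardiac, gonadal and mesenchymal genes 14 rose and 7 fell, with a median of 1.5 against 0.04 for all genes. Foxf1, a factor of gut mesenchyme, was at least 186-fold higher and Wt1 at least 559-fold higher in PSC WT.

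The genes whose levels ran most like each member were found by Pearson's correlation of log2 levels, among 14861 genes over all 15 arrays, 14160 over the 6 PSC arrays and 13406 over the 9 cancer cell arrays. With so few samples, which also share slides and groups, these values are a description. Over the 15 arrays Gata2 was most like Hoxc4, Evc and Hdgfl3 (r of 1.000 each), Gata3 most like Cdc42bpa (0.994), Meg3 (0.994) and Amotl1 (0.993), and Gata4 most like Wasf1, Lrrc1 and Perp (0.996, 0.996 and 0.995). Gata6 was most like Rhbdl1 (0.968), Bmp4 (0.955) and Rab6b (0.954). Over the PSC arrays alone Gata6 was most like Wt1, Dlx4 and Shroom2 (0.999 each), Gata4 most like Klra15 (0.999), Klra4 (0.998) and Tssc4 (0.998), and Gata2 most like Ankrd50 (0.998), Pomk (0.995) and Cspg4 (0.991). The Gata5 probe was most like Tomm22 (0.991), Eif3i and Dnaaf2 (0.990 each) over all arrays, and over the PSC arrays like Rpl38 (0.997), Rpl4 (0.994) and Actb (0.994), genes of the ribosome and the cytoskeleton that all cells use. Over the cancer cell arrays Gata6 was most like Hrc (0.988), Ldhd (0.979) and Prr15 (0.977), Gata4 most like Ucp3 (0.978), Ttc33 (0.950) and Gpd1l (0.948), and Gata5 most like Glo1 (0.966), Wdr1 (0.963) and Apeh (0.962).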

How the data were processed

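The deposited scanner files hold background-subtracted spot intensity values which the file headers credit to version 10.7.3.1 of Agilent's Feature Extraction, with mm9 probe positions, from 2 slides. A deposited table holds the authors' log2 values, which follow each array's log2 mean signal (r of at least 0.995) and have medians of 7.06 to 7.11; how they were centred is not given in the sources used here. Each array's intensity was put on a log2 scale minus its 75th percentile. Spots of a probe were averaged, and a gene was represented by its probe with the highest mean over the 15 arrays. Testing required signal well above background for that probe in every sample of some group in the fit. limma 3.58.1 (R 4.3.3) fitted each comparison, the 9 cancer cell arrays in 1 fit, with Benjamini-Hochberg adjustment at 0.05. The code was tested on simulated data. The deposited gene names were updated through RefSeq for 43738 of 56605 probes.

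The members and the gene lists were chosen with earlier results of these data known. Genes outside the family were named by rule: up to 4 per list with the smallest adjusted p and non-overlapping groups between PSC HT and PSC WT and between cell types, up to 2 in the media comparisons, and Zfpm1, Zfpm2, Trps1, Wt1, Upk3b, Cdh5, Cdh1 and Col1a1 in any case; only part of those are printed. The number of arrays limits the precision. No replicate pair held identical values on any probe. Samples of the same number deviated together at every number only for the WT medium and control samples (r of 0.14, 0.21 and 0.20). On that ground alone they were treated as paired in an alternative with the replicate number as a block. The labels name no pairs, and the main fits were unpaired. Number 2 of HT medium and control had an r of 0.23. Number 1 of WT medium and of control lay on slide 1 and number 2 of both on slide 2, so slide and number cannot be told apart there. Number 3 of WT medium lay on slide 2 and number 3 of control on slide 1, with an r of 0.20. Alternatives changed the background correction, scaling, filter, probe choice, slide, pairing, variance model, threshold and samples. The genes most like Gata3 over the PSC arrays are not reported here.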

Additional observations from a re-analysis of the deposited data

How the results depend on the processing

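Every tested GATA difference kept its sign under all alternatives except those near 0, which are Gata5 within each cell type and all 3 genes between the media; no called difference reversed. Between PSC HT and PSC WT Gata2 ranged from -0.43 to -0.27, Gata3 from -0.76 to -0.37, Gata4 from -3.17 to -1.52 and Gata6 from -1.95 to -1.52. Gata6 against control ranged from -0.42 to -0.23 with medium of PSC HT and from -0.57 to -0.27 with medium of PSC WT. Between cell types Gata2 ranged from 4.97 to 8.59 and Gata3 from 3.47 to 6.75, both lowest with normexp.

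Calls moved more. Between PSC HT and PSC WT 1613 genes and 2 GATA genes were called. No filter gave 402 genes, slide 1 alone 0 genes and 0 GATA genes, slide 2 alone 425, a fit of all 15 arrays 2481, an adjusted p of 0.01 520, and leaving out 1 sample 554 to 1284 genes (554 without PSC WT replicate 3, 634 without PSC WT replicate 2, 936 without PSC HT replicate 2 and 947 without PSC HT replicate 3) and 2 to 3 GATA genes. A variance trend called 4 GATA genes.

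With medium of PSC HT 1075 genes and Gata6 were called against control. The count was 535 with median scaling, 334 with no filter, 711 with the mean of all probes, 0 within slide 1, 0 within slide 2, 328 at an adjusted p of 0.01, and 494 to 879 without 1 sample. GATA calls were 0 under each of these and also with normexp, with every probe tested and with the replicate block. With medium of PSC WT 1174 genes and Gata6 were called. The count was 638 with median scaling, 467 with no filter, 167 within slide 1, 64 within slide 2, 473 at an adjusted p of 0.01 and 579 to 1104 without 1 sample. GATA calls were 0 under these settings, with normexp and with the replicate block, and 0 to 1 without 1 sample, Gata6 being kept only without HT medium replicate 1 or 2.

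Between the media 0 genes were called, with 1 each under normexp, median scaling, the deposited table, 1 fit of 15 arrays and a variance trend, 115 within slide 1 and 0 to 6 without 1 sample. Between cell types 15654 genes were called, 7924 higher and 7730 lower. Median scaling gave 5334 higher and 10436 lower, and testing every probe 23537 calls. Requiring signal on all arrays left 3 GATA genes called in place of 5, since Gata2 and Gata3 are then not tested.

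The replicate block changed no other GATA call. By the labels the samples share only a number. Of the WT medium and control samples 4 of 6 correlated best with their own number, and 3 of 6, 2 of 6, 2 of 6 and 0 of 6 did in the other comparisons. Causes were not tested, other than that slides alone and left-out samples mean fewer arrays. Within a slide at least 1 group of each comparison within a cell type had 1 array, assumed to vary like the others, except HT medium against control on slide 1, with 2 arrays each. The calls within slides, or their absence, say nothing about stability. Signal near background limits Gata1, the dimmer Gata4 and Gata5 probes, and all levels of Gata2 and Gata3 in cancer cells.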
